A study of Mus musculus with 8 samples.

Results

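The genes described here are the nuclear-encoded subunits of the 5 complexes of oxidative phosphorylation (OXPHOS) in Myc-CaP tumors. They were chosen by gene name alone (*Ndufa*, *Ndufb*, *Ndufc*, *Ndufs*, *Ndufv*, *Sdha* to *Sdhd*, *Uqcr*, *Cyc1*, *Cox4* to *Cox8* and *Atp5* names), with a summed count of at least 80 over the 8 samples and without names that mark a pseudogene. Of 39089 genes in the tables, 91 had such a name and 79 were kept: 36 of complex I, 4 of complex II, 9 of complex III, 13 of complex IV (with *Ndufa4*, now counted there) and 17 of complex V. No gene lay near the limit: the lowest that was kept, *Ndufs5*, had a summed count of 408, and the highest that was not, *Cox4i2*, had 45.

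Myc-CaP cells come from a *Myc*-driven prostate cancer of the mouse. Here they carried an empty vector (WT) or a guide RNA that targets *Arid1a* (*Arid1a* KO), and they grew under the skin of male FVB mice aged 6 weeks. From day 16 the mice received JSH-23, which blocks the move of the NF-κB subunit p65 into the nucleus, or corn oil vehicle by gavage every day for 2 weeks. EpCAM+; CD45- cells were then sorted and their RNA sequenced. The 4 groups of 2 samples were WT with vehicle, WT with JSH-23, *Arid1a* KO with vehicle and *Arid1a* KO with JSH-23. All samples thus came from 1 line with high *Myc* activity. The labels do not say which samples came from separate tumors, so p-values measure only the spread between these samples, which may be technical.

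In oxidative phosphorylation, complexes I and II pass electrons from NADH and succinate to ubiquinone, complex III passes them to cytochrome c, and complex IV passes them to oxygen. Complexes I, III and IV pump protons across the inner mitochondrial membrane, and complex V, the ATP synthase, uses the returning protons to make ATP. All but complex II are built from subunits of both genomes, and the genes described here are those of the nucleus. The 13 mitochondrially encoded subunits were not analysed here.

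Total counts were between 16401581 and 21972231 per sample, and the common biological coefficient of variation was 1.61%. The targeted gene was lower in the KO samples, with *Arid1a* at 156 and 161 CPM in WT and 103 and 106 CPM in KO tumors with vehicle, and 144 and 155 against 93.8 and 95.9 CPM with JSH-23. Of the epithelial markers, *Krt8* (between 540 and 2308 reads per sample) was well covered, but *Epcam*, the marker of the sort, had between 0 and 4 reads and *Cdh1* between 1 and 19. The neutrophil marker *Ly6g* had no read in any sample, and the 8 immune markers summed to between 10.1 and 22.4 CPM and the 4 endothelial markers to between 0.436 and 1.24 CPM.

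The OXPHOS subunits took a larger share of all counts in JSH-23-treated *Arid1a* KO tumors than in any other group. Summed over the 79 genes, the level was 7782 and 7824 CPM (counts scaled to the size of the library, here without further factors) in vehicle-treated WT tumors, 7956 and 7992 CPM in JSH-23-treated WT tumors, 7987 and 7974 CPM in vehicle-treated *Arid1a* KO tumors, and 9403 and 9395 CPM in JSH-23-treated *Arid1a* KO tumors. By their means, JSH-23-treated WT tumors were 2.19% and vehicle-treated *Arid1a* KO tumors 2.27% above vehicle-treated WT tumors, and the last was 20.5% above. Against the same group, the summed level in JSH-23-treated *Arid1a* KO tumors was higher by 14.7% for complex I, 0.743% for complex II, 23.5% for complex III, 31.7% for complex IV and 20.8% for complex V. With TMM factors these values were 21.8%, 7.0%, 31.1%, 39.9% and 28.3%, and by summed TPM 8.38%, -3.17%, 13.9%, 18.2% and 13.9%, so the direction for complex II depended on the scale. In vehicle-treated *Arid1a* KO tumors, complex II was 12.8% below and complex IV 12.1% above vehicle-treated WT tumors. These are bulk samples, in which fewer cells of a type and less RNA per cell cannot be told apart. Summed TPM, which weights each gene by its length, was 19160 ± 113 (SD, n = 2) in vehicle-treated WT tumors and 21697 ± 65.5 (SD, n = 2) in JSH-23-treated *Arid1a* KO tumors, a smaller difference.

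**Figure D1:**
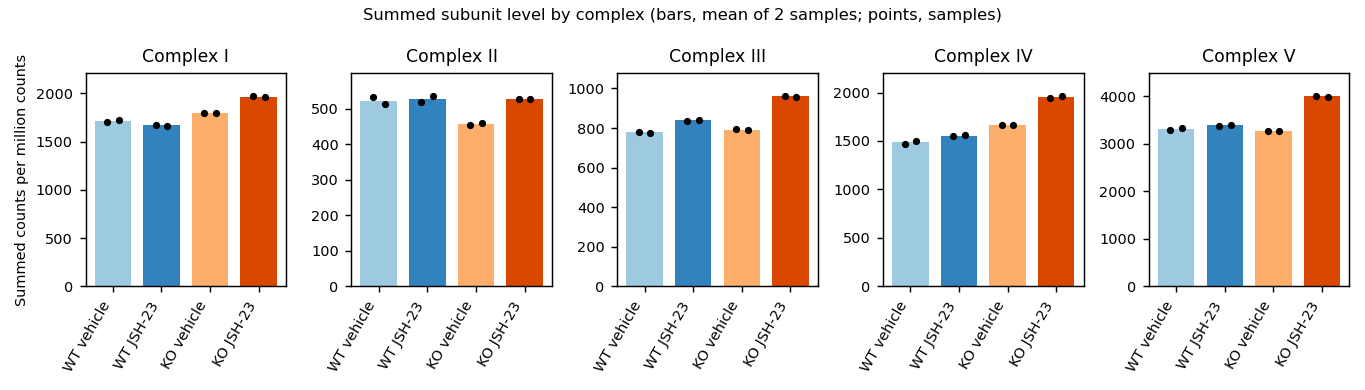
Summed subunit level of each complex, in CPM without further factors, in each group (bars, mean of 2 samples; points, samples; axes start at 0). In complexes I, III, IV and V both samples of JSH-23-treated *Arid1a* KO tumors are above the other 6, and in complex II vehicle-treated *Arid1a* KO tumors are the lowest.

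Gene by gene, loss of *Arid1a* with vehicle moved the subunits both ways. From here on, CPM values were scaled by TMM factors, and genes were called by the quasi-likelihood test of edgeR where the Benjamini-Hochberg adjusted p was under 0.05. The adjustment ran over the 13921 genes tested, which included all 79 subunits. With vehicle, *Arid1a* KO tumors had 26 of the 79 higher and 18 lower than WT tumors, with a median log2 fold change of -0.0035. Of all genes tested, 25% were called higher and 25.5% lower, with a median of 0.0032.

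With JSH-23 the same comparison leaned one way. Between the genotypes under JSH-23, 70 of the 79 subunits were higher in *Arid1a* KO tumors and 2 lower, with a median of 0.36. Of all genes, 23.2% were higher and 23.8% lower, with a median of -0.01. Within *Arid1a* KO tumors, JSH-23 was followed by higher levels of 69 subunits and lower levels of 4 (median 0.35), beside 33.4% and 34.4% of all genes (median -0.02). Within WT tumors, JSH-23 was followed by higher levels of 22 and lower levels of 15 (median 0.05), beside 28.6% and 27.2% of all genes (median -0.01). These comparisons share samples, and each count is that comparison's own.

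The JSH-23 effect itself differed between the genotypes. The interaction, the effect in *Arid1a* KO minus the effect in WT tumors, was called positive for 63 of the 79 subunits and negative for 1, with a median of 0.34. Of all genes, it was positive for 20.5% and negative for 17.9%, with a median of -0.0041. For 39 subunits JSH-23 was followed by a rise in *Arid1a* KO tumors with no call in WT tumors, and for 22 by a rise in both. For 8 it was followed by a rise in *Arid1a* KO and a fall in WT, and for 4 by a fall in both. The share of all genes with each combination was not counted, so these counts describe the subunits only. The 8 were *Ndufb2*, *Ndufb7*, *Ndufs3*, *Uqcr11*, *Uqcrb*, *Cox5b*, *Cox6a1* and *Atp5k*. Both calls held without each sample in turn for 3 of them, *Ndufs3*, *Uqcrb* and *Cox6a1*. The fall in WT tumors was lost without at least 1 sample for *Ndufb2* (weakest value -0.16), *Ndufb7* (-0.10), *Uqcr11* (-0.16), *Cox5b* (-0.06) and *Atp5k* (-0.26), and the rise of *Ndufb7* in *Arid1a* KO tumors was lost without the first sample with JSH-23 (0.16). Both samples of JSH-23-treated *Arid1a* KO tumors lay above the other 6 for 66 of the 79 subunits, beside 17.3% of all genes tested: 28 of 36 in complex I, 3 of 4 in complex II, 8 of 9 in complex III, 12 of 13 in complex IV and 15 of 17 in complex V.

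**Figure D2:**
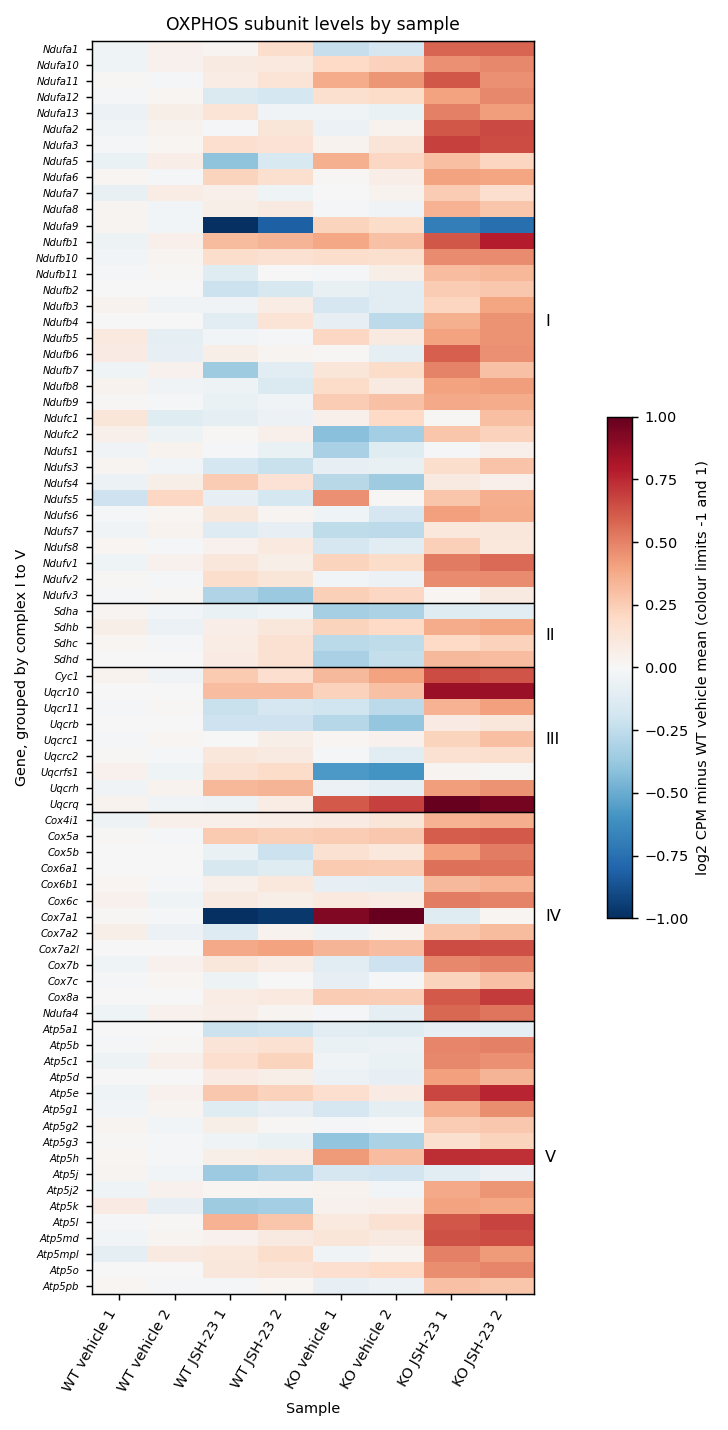
Level of 78 of the 79 subunits in each sample, as TMM-scaled log2 CPM minus the mean of vehicle-treated WT tumors (colour; rows grouped by complex I to V); 1 subunit is not drawn. The 2 columns of JSH-23-treated *Arid1a* KO tumors are red for most genes drawn. *Ndufa9* stands out in blue under JSH-23 in both genotypes. *Cox7a1* is blue under JSH-23 in WT tumors only, and in JSH-23-treated *Arid1a* KO tumors it is near the level of vehicle-treated WT tumors.

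The changes were small. Under JSH-23, 9 of the 79 subunits were past a fold change of 1.5 between the genotypes, all higher in *Arid1a* KO tumors. Of the 13921 genes tested, 520 were called higher and 692 lower past it. Within *Arid1a* KO tumors, 10 subunits higher with JSH-23 and 2 lower were past it, beside 1267 and 2358 of all genes tested. The fold of the median subunit was 1.28 in both comparisons. The calls rest on the small spread between the 2 samples of each group. With a biological coefficient of variation set to 0.1 in place of the estimate, 29 subunits were called higher in *Arid1a* KO than WT tumors under JSH-23, 41 were called higher with JSH-23 in *Arid1a* KO tumors, and 2 had a positive interaction. With 0.2, the counts were 1, 0 and 0. The share of all genes called at these 2 settings is not given.

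**Figure D3:**
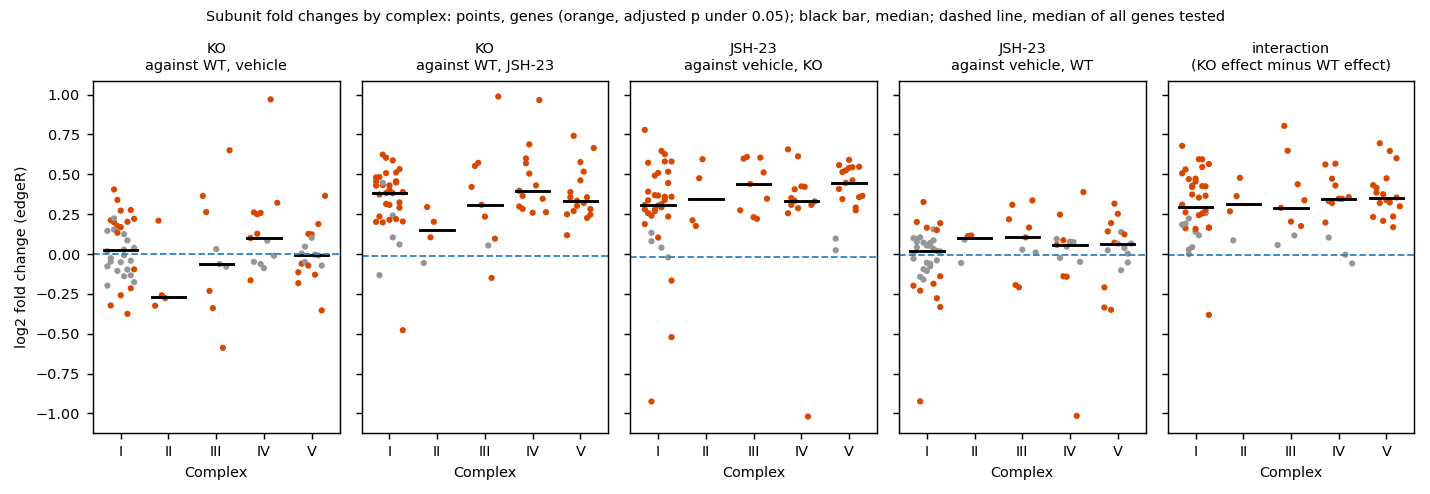
log2 fold change of each subunit in the 5 comparisons, by complex (orange points, adjusted p under 0.05 in edgeR; grey points, not called; black bar, median of the complex; dashed line, median of all genes tested). The medians of complexes I to V lie between 0.15 and 0.45 in both comparisons named for JSH-23 and KO and in the interaction, above the dashed line.

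Short genes in general moved in the same direction, and most OXPHOS subunits are short. Of the 79 subunits, 42 had a gene length of at most 1000 bases in the tables and 31 one of 1000 to 2000 bases. With JSH-23 in *Arid1a* KO tumors, the other protein-coding genes of at most 1000 bases had a median log2 fold change of 0.29 and 57.1% of these 518 genes were called higher, beside a median of 0.41 and 90.5% for the subunits of that length. From 1000 to 2000 bases the values were 0.12 and 44% for 1896 other genes, beside 0.35 and 90.3% for the subunits. In the interaction the medians were 0.23 for the other genes and 0.35 for the subunits up to 1000 bases, and 0.11 against 0.32 from 1000 to 2000 bases. A smooth trend on gene length was then taken out of each sample, an analysis added after seeing the data. Under JSH-23, 49 subunits were then higher and 5 lower in *Arid1a* KO than WT tumors (median 0.17), 58 were higher and 7 lower with JSH-23 in *Arid1a* KO tumors (median 0.20), and 39 had a positive and 2 a negative interaction (median 0.19). Between 62 and 69 of the 79 subunits lay above the median of all genes in these 3 comparisons. The share of all genes called in this fit is not given.

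**Figure D4:**
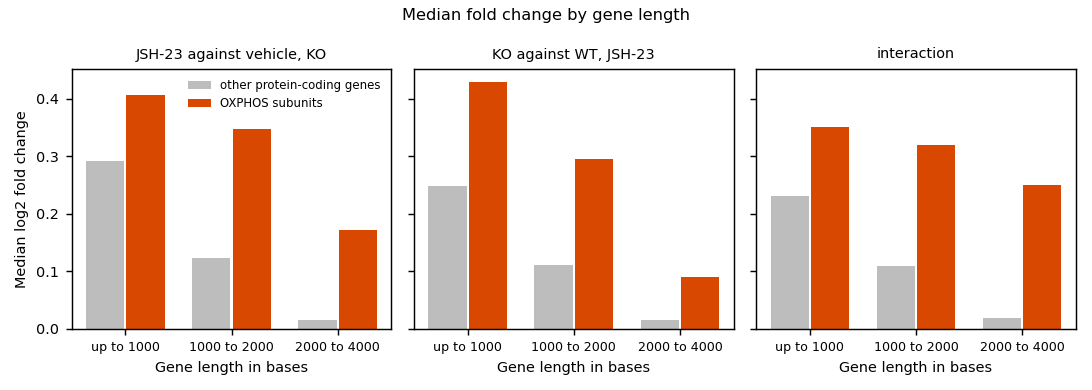
Median log2 fold change of OXPHOS subunits (orange) and of the other protein-coding genes tested (grey) in 3 classes of gene length in bases; the subunits number 42, 31 and 6 in the classes. Both series fall with length, and the orange bar is the higher in each class.

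Sums of fat and fibroblast markers also set JSH-23-treated *Arid1a* KO tumors apart. The muscle sum overlapped that of JSH-23-treated WT tumors. The 5 fat markers summed to between 60.5 and 65.3 CPM in JSH-23-treated *Arid1a* KO tumors and to between 45.0 and 58.5 CPM in the other samples; nearly all of it was *Fabp4*, and *Adipoq* had between 0 and 4 reads. The 5 fibroblast markers summed to between 41.7 and 42.1 CPM in JSH-23-treated *Arid1a* KO tumors and to between 59.4 and 64.7 CPM in the other samples. Most of this sum was 1 gene, *Pdgfra*, at 38.0 and 38.5 CPM in JSH-23-treated *Arid1a* KO tumors and between 53.3 and 61.3 CPM in the others. *Dcn* had 10 and 15 reads in that group and between 3 and 14 in the others. The 7 skeletal muscle markers summed to between 3.73 and 4.89 CPM in JSH-23-treated *Arid1a* KO tumors and to between 1.88 and 3.77 CPM elsewhere. *Mylpf* was at 2.38 and 3.21 CPM in JSH-23-treated *Arid1a* KO tumors and at 2.40 and 2.43 CPM in JSH-23-treated WT tumors. *Ckm* had 0 to 3 reads in all samples. Their part in the results was not tested.

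Complex I takes electrons from NADH and is the largest of the chain. Its core subunits that are encoded in the nucleus carry among them the flavin and the iron-sulfur clusters. *Ndufv1*, which binds NADH and the flavin, was at 76.1 and 80.6 CPM in vehicle-treated and 84.8 and 81.4 CPM in JSH-23-treated WT tumors. *Arid1a* KO tumors had 91.4 and 89 CPM with vehicle and 112 and 116 CPM with JSH-23. The samples of JSH-23-treated *Arid1a* KO tumors did not overlap the others. The log2 fold change with JSH-23 was 0.34 (standard error 0.0394, adjusted p = 9.06e-12) in *Arid1a* KO and 0.09 (standard error 0.0447, adjusted p = 0.0965) in WT tumors. *Ndufv2*, the partner of *Ndufv1* in the NADH-oxidising tip, rose by 0.52 on the log2 scale in *Arid1a* KO and by 0.15 in WT tumors, and the interaction was 0.37 (standard error 0.0518, adjusted p = 1.6e-08). *Ndufs3*, a core subunit without a cluster, rose in *Arid1a* KO tumors (0.31 (standard error 0.0524, adjusted p = 4.7e-07)) and fell in WT tumors (-0.20 (standard error 0.0574, adjusted p = 0.00238)). The iron-sulfur subunits *Ndufs1*, *Ndufs7* and *Ndufs8* had interactions of 0.27 (standard error 0.0755), 0.47 (standard error 0.0864) and 0.24 (standard error 0.0865). *Ndufs1* and *Ndufs7* were lower in *Arid1a* KO than WT tumors given vehicle (-0.21 and -0.26). Without the first sample of vehicle-treated *Arid1a* KO tumors, *Ndufs1* lost both that call and its interaction (0.19). The interaction of *Ndufs8* was lost without any of 4 samples, 1 of each group (0.19 to 0.23). The WT value of *Ndufv1* was called without the second vehicle-treated WT sample (0.13).

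The other 29 subunits of complex I build the arms around this core. With JSH-23 in *Arid1a* KO tumors, 23 of them rose, 2 fell and 20 had a positive interaction; of the 21 that belong to the membrane arm and its junction, 17 rose and 1 fell. *Ndufa1*, a small membrane subunit on the X chromosome (chrX:37187588-37191238), had the largest rise of the complex. It was at 15.1 and 16.1 CPM in vehicle-treated and 15.9 and 17.6 CPM in JSH-23-treated WT tumors. The corresponding *Arid1a* KO levels were 13.3 and 13.9 CPM and 23.3 and 23.4 CPM. The last group stood above all others, and the log2 fold change with JSH-23 was 0.78 (standard error 0.0921, adjusted p = 1.87e-11) in *Arid1a* KO and 0.10 (standard error 0.0998, adjusted p = 0.409) in WT tumors. *Ndufc2*, a subunit of the membrane arm, was lowest in vehicle-treated *Arid1a* KO tumors, at 37.7 and 39.8 CPM against 52.1 and 48.6 CPM in WT (-0.38 (standard error 0.0601, adjusted p = 2.02e-07)). It rose to 61.1 and 58.9 CPM with JSH-23, and its interaction of 0.59 (standard error 0.0816, adjusted p = 7.03e-09) had the smallest p of complex I. *Ndufa11*, an accessory subunit of the membrane arm, was higher in vehicle-treated *Arid1a* KO tumors (0.40 (standard error 0.0676, adjusted p = 5.26e-07)) and with JSH-23 (0.43 (standard error 0.0653, adjusted p = 5.28e-08)), and its interaction was 0.03 (standard error 0.0944, adjusted p = 0.853). *Ndufb7* had the largest difference between the genotypes under JSH-23, 0.62 (standard error 0.0772, adjusted p = 1.92e-10), and with the length trend removed its JSH-23 effect in *Arid1a* KO tumors was -0.0042. *Ndufb1* rose most in WT tumors, by 0.33, and by 0.37 in *Arid1a* KO tumors. *Ndufs5* had between 2.20 and 3.48 CPM and no call, and its value is uncertain, since the pseudogene *Ndufs5-ps* had a summed count of 2024 and reads could have been placed on either copy.

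Complex II, succinate dehydrogenase, is shared with the citric acid cycle and is the complex that has no mitochondrially encoded subunit. With vehicle, *Arid1a* KO tumors had lower levels of 3 of its 4 genes than WT tumors and a higher level of *Sdhb*. *Sdha*, which carries the flavin, was at 281 and 271 CPM in vehicle-treated and 263 and 268 CPM in JSH-23-treated WT tumors. With loss of *Arid1a* the levels were 219 and 222 CPM with vehicle and 254 and 257 CPM with JSH-23. It was lowest in vehicle-treated *Arid1a* KO tumors, and its log2 fold change against WT was -0.32 (standard error 0.0262, adjusted p = 1.4e-17). *Sdhc* and *Sdhd*, the membrane anchors, were likewise lower (-0.26 (standard error 0.0469, adjusted p = 3.15e-06) and -0.28 (standard error 0.0424, adjusted p = 7.14e-08)). *Sdhb*, the iron-sulfur subunit, went the other way (0.21 (standard error 0.0462, adjusted p = 9.29e-05)). JSH-23 was followed in *Arid1a* KO tumors by a rise of all 4 genes, by between 0.18 for *Sdhb* and 0.59 for *Sdhd*. The interactions were 0.48 (standard error 0.0574) for *Sdhd*, 0.36 (standard error 0.064) for *Sdhc*, 0.27 (standard error 0.0367) for *Sdha* and 0.09 (standard error 0.0643) for *Sdhb*, the last not called. On the log2(TPM + 1) scale in limma, *Sdha* and *Sdhb* had the opposite sign with JSH-23 in *Arid1a* KO tumors (-0.03 and -0.06). With JSH-23, *Sdha* did not reach a difference between the genotypes (-0.06 (standard error 0.0257, adjusted p = 0.0644)).

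Complex III passes electrons from ubiquinol to cytochrome c. All 9 of its genes rose with JSH-23 in *Arid1a* KO tumors and 7 had a positive interaction. *Uqcr11*, a small subunit at chr10:80402997-80406821, had the largest interaction of all 79 genes. It was at 40.8 and 41.3 CPM in vehicle-treated and 35.2 and 36.5 CPM in JSH-23-treated WT tumors. In *Arid1a* KO tumors it was at 35.8 and 34.2 CPM with vehicle and 52.1 and 54.5 CPM with JSH-23. JSH-23 was followed by a higher level in *Arid1a* KO tumors (0.61 (standard error 0.0601, adjusted p = 2.51e-14)) and a lower one in WT tumors (-0.19 (standard error 0.0655, adjusted p = 0.00922)). The fall in WT tumors was lost without the first sample with JSH-23 or the second with vehicle (-0.16 and -0.18). The interaction was 0.80 (standard error 0.089, adjusted p = 8.31e-12). *Uqcrb*, which helps bind ubiquinone, had the same pattern, with 0.44 in *Arid1a* KO, -0.21 in WT tumors and an interaction of 0.65 (standard error 0.0852, adjusted p = 1.98e-09). *Uqcrfs1*, the Rieske iron-sulfur protein, was the most lowered subunit in vehicle-treated *Arid1a* KO tumors. It was at 139 and 131 CPM in vehicle-treated and 149.8 and 153 CPM in JSH-23-treated WT tumors. *Arid1a* KO tumors had 90.6 and 88.8 CPM with vehicle and 137 and 136 CPM with JSH-23. The *Arid1a* KO samples with vehicle stood below the other 6 (-0.59 (standard error 0.0374, adjusted p = 1.73e-22)). With JSH-23 the difference between the genotypes was -0.15 (standard error 0.034, adjusted p = 0.000156). *Uqcrq*, which also lies near the ubiquinone site, was the most raised subunit of complex III with either treatment, at 61.3 and 58.6 CPM in WT and 92 and 96.2 CPM in vehicle-treated *Arid1a* KO tumors (0.65 (standard error 0.0471, adjusted p = 1.01e-19)). With JSH-23 it was at 57.9 and 63 against 124 and 116 CPM (0.99 (standard error 0.0451, adjusted p = 5.09e-30)).

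The remaining catalytic subunit of complex III, cytochrome c1 (*Cyc1*), was higher in *Arid1a* KO tumors with either treatment (0.36 and 0.42) and rose with JSH-23 in both genotypes (0.27 and 0.22), with an interaction of 0.06 (standard error 0.0577, adjusted p = 0.475). The core proteins *Uqcrc1* and *Uqcrc2* rose with JSH-23 in *Arid1a* KO tumors by 0.23 and 0.22, and on the log2(TPM + 1) scale their values were -0.0080 and -0.02. *Uqcrh*, the hinge protein that docks cytochrome c, rose in both genotypes (0.51 (standard error 0.0403, adjusted p = 2.01e-18) in *Arid1a* KO and 0.34 (standard error 0.0424, adjusted p = 2.57e-10) in WT tumors). Its interaction of 0.18 turned to -0.06 with the length trend removed and to -0.02 on the log2(TPM + 1) scale, and its call was lost without the second vehicle-treated sample of either genotype (0.16 and 0.15).

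Complex IV, cytochrome c oxidase, had all 13 genes higher in *Arid1a* KO than WT tumors given JSH-23, and 7 higher and 1 lower with vehicle. *Cox4i1*, the ubiquitous form of the regulatory subunit 4, was at 335 and 359 CPM in vehicle-treated and 359.6 and 364 CPM in JSH-23-treated WT tumors. The corresponding *Arid1a* KO levels were 366 and 378 CPM and 442 and 448 CPM. It rose with JSH-23 in *Arid1a* KO tumors by 0.26 (standard error 0.023, adjusted p = 5.72e-16), and by 0.06 (standard error 0.0244, adjusted p = 0.0378) in WT tumors, a call that was lost without the first WT sample with vehicle (0.01) or the second with JSH-23 (0.06). *Cox5a* rose in both genotypes (0.35 in *Arid1a* KO and 0.25 in WT tumors, interaction 0.10 (standard error 0.0561, adjusted p = 0.143)), whereas *Cox5b*, the zinc-binding subunit, rose in *Arid1a* KO (0.33 (standard error 0.043, adjusted p = 2.88e-10)) and fell in WT tumors (-0.14 (standard error 0.0492, adjusted p = 0.0133)). That fall was lost without either vehicle-treated WT sample (-0.14 and -0.13) or the second with JSH-23 (-0.06). *Cox7b* was lower in *Arid1a* KO than WT tumors given vehicle (-0.17 (standard error 0.0442, adjusted p = 0.00117)), a call that was lost without the second *Arid1a* KO or the second WT sample (-0.12 and -0.13). It had the largest rise of the complex with JSH-23 in *Arid1a* KO tumors (0.66 (standard error 0.0406, adjusted p = 1.7e-23)). *Ndufa4*, first assigned to complex I and later to complex IV, was at 53.9 and 57.1 CPM in vehicle-treated and 58.1 and 56.4 CPM in JSH-23-treated WT tumors. With loss of *Arid1a* the levels were 54.6 and 51.8 CPM with vehicle and 82.3 and 80.2 CPM with JSH-23. Its interaction was 0.57 (standard error 0.0729, adjusted p = 1.07e-09).

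Several subunits of complex IV have a second gene used in other tissues, and for *Cox4*, *Cox6a*, *Cox6b*, *Cox8* and *Ndufa4* nearly all reads fell here on the ubiquitous form. *Cox4i2*, the lung and hypoxia form, had between 1 and 15 reads in a sample. The muscle forms *Cox6a2* and *Cox8b* had at most 6 and 5 reads, *Ndufa4l2*, a hypoxia-responsive relative of *Ndufa4*, at most 4, and the testis form *Cox6b2* at most 1. Their partners were abundant: over the 8 samples *Cox6a1* averaged 892 TPM, *Cox8a* 783 TPM, *Cox4i1* 1198 TPM and *Cox6b1* 495 TPM. *Cox6a1*, the liver-type form, was at 177 and 175 CPM in vehicle-treated and 157 and 162 CPM in JSH-23-treated WT tumors. In *Arid1a* KO tumors it was at 211 and 209.9 CPM with vehicle and 258 and 256 CPM with JSH-23. It fell with JSH-23 in WT (-0.14 (standard error 0.0306, adjusted p = 5.62e-05)) and rose in *Arid1a* KO tumors (0.29 (standard error 0.0267, adjusted p = 2.19e-15)). Its interaction of 0.43 (standard error 0.0406, adjusted p = 2.22e-14) had the smallest p of complex IV. *Cox8a* and *Cox6b1* had interactions of 0.32 (standard error 0.044, adjusted p = 7.46e-09) and 0.35 (standard error 0.0565, adjusted p = 5.08e-07).

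In the *Cox7a* family both forms were read: *Cox7a1* had a summed count of 1408 and *Cox7a2* one of 7382. *Cox7a1*, the form of heart and skeletal muscle, was the exception of complex IV. It was at 8.61 and 8.47 CPM in vehicle-treated and 4.08 and 4.38 CPM in JSH-23-treated WT tumors. *Arid1a* KO tumors had 16.2 and 17.2 CPM with vehicle and 7.84 and 8.63 CPM with JSH-23. The level was higher with loss of *Arid1a* and lower with JSH-23, and no 2 groups overlapped except WT with vehicle and *Arid1a* KO with JSH-23. The log2 fold change of *Arid1a* KO against WT was 0.97 (standard error 0.116, adjusted p = 4.85e-11) with vehicle and 0.97 (standard error 0.15, adjusted p = 1.15e-07) with JSH-23. That of JSH-23 was -1.02 (standard error 0.113, adjusted p = 1.83e-12) in *Arid1a* KO and -1.02 (standard error 0.153, adjusted p = 4.25e-08) in WT tumors, and the interaction was -0.0041 (standard error 0.226). Of the 7 muscle markers, *Acta1*, *Myh4*, *Myh1* and *Ckm* had at most 9, 1, 1 and 3 reads in a sample. *Actn3* had at most 12, *Tnnt3* between 3 and 23 and *Mylpf* between 10 and 67. *Mylpf* was higher with JSH-23 in *Arid1a* KO tumors (2.06, standard error 0.337), where *Cox7a1* was lower. The part of muscle RNA in the *Cox7a1* level was not tested. *Cox7a2*, the ubiquitous form, rose with JSH-23 in *Arid1a* KO tumors (0.31 (standard error 0.0565, adjusted p = 2.15e-06)). Part of its gene (2482 bases) lies on the same strand as *Tmem30a*, so that reads there are uncertain. *Cox7a2l*, which holds complexes III and IV together in the supercomplex, rose with JSH-23 in *Arid1a* KO (0.33 (standard error 0.0255, adjusted p = 8.08e-19)) and WT tumors (0.39 (standard error 0.0281, adjusted p = 7.99e-20)). The interaction was -0.06 (standard error 0.038, adjusted p = 0.226).

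Complex V, the ATP synthase, had 17 of 17 genes higher in *Arid1a* KO than WT tumors given JSH-23 and 17 of 17 with a positive interaction. *Atp5b*, the catalytic β subunit at chr10:128083307-128090388, was the most abundant subunit per length (1430.4 TPM over the 8 samples). It was at 999 and 1012 CPM in vehicle-treated and 1101 and 1118 CPM in JSH-23-treated WT tumors. The corresponding *Arid1a* KO levels were 961 and 967 CPM and 1411 and 1427 CPM. After JSH-23 it rose in *Arid1a* KO (0.56 (standard error 0.0152, adjusted p = 1.52e-43)) and in WT tumors (0.14 (standard error 0.0156, adjusted p = 2.84e-12)). The interaction of 0.42 (standard error 0.0218, adjusted p = 2.28e-26) had the smallest p of all 79 genes. *Atp5c1*, the γ subunit of the rotating stalk, moved in the same directions (0.51 in *Arid1a* KO, 0.19 in WT tumors, interaction 0.32 (standard error 0.0366, adjusted p = 2.59e-11)). *Atp5e*, the ε subunit, had the largest rise of the complex with JSH-23 in *Arid1a* KO tumors (0.59 (standard error 0.0409, adjusted p = 4.65e-21)).

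*Atp5a1*, the α subunit that alternates with β in the same head, did not follow. It was at 641 and 639 CPM in vehicle-treated and 551 and 556 CPM in JSH-23-treated WT tumors. With loss of *Arid1a* the levels were 592 and 589.7 CPM with vehicle and 605 and 597 CPM with JSH-23. It fell with JSH-23 in WT tumors (-0.21 (standard error 0.0189, adjusted p = 1.75e-15)) and had no call in *Arid1a* KO tumors (0.02 (standard error 0.0185, adjusted p = 0.253)), a value that was -0.09 with no scaling beyond library size and -0.21 on the log2(TPM + 1) scale. Without the second *Arid1a* KO sample with JSH-23 it was called (0.06). The interaction was 0.23 (standard error 0.0264, adjusted p = 2.01e-11).

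The c ring, whose turning drives the enzyme, is made from 3 genes that encode the same mature protein. *Atp5g1* and *Atp5g3* were lower in *Arid1a* KO than WT tumors given vehicle (-0.13 (standard error 0.0495, adjusted p = 0.0237) and -0.35 (standard error 0.0357, adjusted p = 1.42e-13)) and *Atp5g2* had no call (-0.01 (standard error 0.0291, adjusted p = 0.827)). The call of *Atp5g1* was lost without the first *Arid1a* KO or the second WT sample (-0.10 and -0.11). *Atp5g3* was at 143 and 140.4 CPM in vehicle-treated and 138 and 136 CPM in JSH-23-treated WT tumors. In *Arid1a* KO tumors it was at 108 and 114 CPM with vehicle and 159 and 166 CPM with JSH-23. All 3 genes rose with JSH-23 in *Arid1a* KO tumors and had no call in WT tumors. The interactions were 0.65 (standard error 0.0682, adjusted p = 1.51e-12) for *Atp5g1*, 0.24 (standard error 0.0405, adjusted p = 1.65e-06) for *Atp5g2* and 0.60 (standard error 0.049, adjusted p = 5.38e-17) for *Atp5g3*. Of the peripheral stalk, *Atp5h* was the most raised in vehicle-treated *Arid1a* KO tumors (0.37 (standard error 0.0353, adjusted p = 2.65e-14)). *Atp5j* had no call with JSH-23 in *Arid1a* KO (0.10 (standard error 0.0506, adjusted p = 0.0841)) and fell in WT tumors (-0.34 (standard error 0.0536, adjusted p = 1.69e-07)). The former was called without the first *Arid1a* KO sample with JSH-23 (0.14). *Atp5j* overlaps *Gabpa* on the opposite strand over 967 bases. The 5 small membrane subunits all rose with JSH-23 in *Arid1a* KO tumors. *Atp5k* had the largest interaction of complex V (0.69 (standard error 0.13, adjusted p = 9.49e-06)). *Atp5l* had the largest rise in WT tumors (0.32 (standard error 0.0429, adjusted p = 2.47e-09)), with an interaction of 0.21 that turned to -0.04 with the length trend removed.

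Among the subunits that fell with JSH-23 in *Arid1a* KO tumors were *Cox7a1*, *Ndufa9* and *Ndufv3*. *Ndufa9*, which binds a nucleotide cofactor at the junction of the 2 arms of complex I, was at 38.5 and 37.1 CPM in vehicle-treated and 18.4 and 21.5 CPM in JSH-23-treated WT tumors. *Arid1a* KO tumors had 44 and 42.8 CPM with vehicle and 23.3 and 22.4 CPM with JSH-23. The samples with JSH-23 lay below those with vehicle in both genotypes. The log2 fold change was -0.92 (standard error 0.0715, adjusted p = 8.2e-19) in *Arid1a* KO and -0.92 (standard error 0.0787, adjusted p = 1.37e-16) in WT tumors, with an interaction of -0.00042 (standard error 0.116, adjusted p = 0.999). *Ndufv3*, an accessory subunit of the NADH-oxidising tip that was named after its values were seen, fell by less in *Arid1a* KO (-0.17 (standard error 0.0312, adjusted p = 3.27e-06)) than in WT tumors (-0.33 (standard error 0.0349, adjusted p = 5.3e-13)). Its interaction was 0.17 (standard error 0.0468, adjusted p = 0.00303). *Ndufa9* fell while most subunits of complex I rose in *Arid1a* KO tumors. In the plot of subunits by sample it is blue among the red in the columns of JSH-23-treated *Arid1a* KO tumors.

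**Figure D5:**
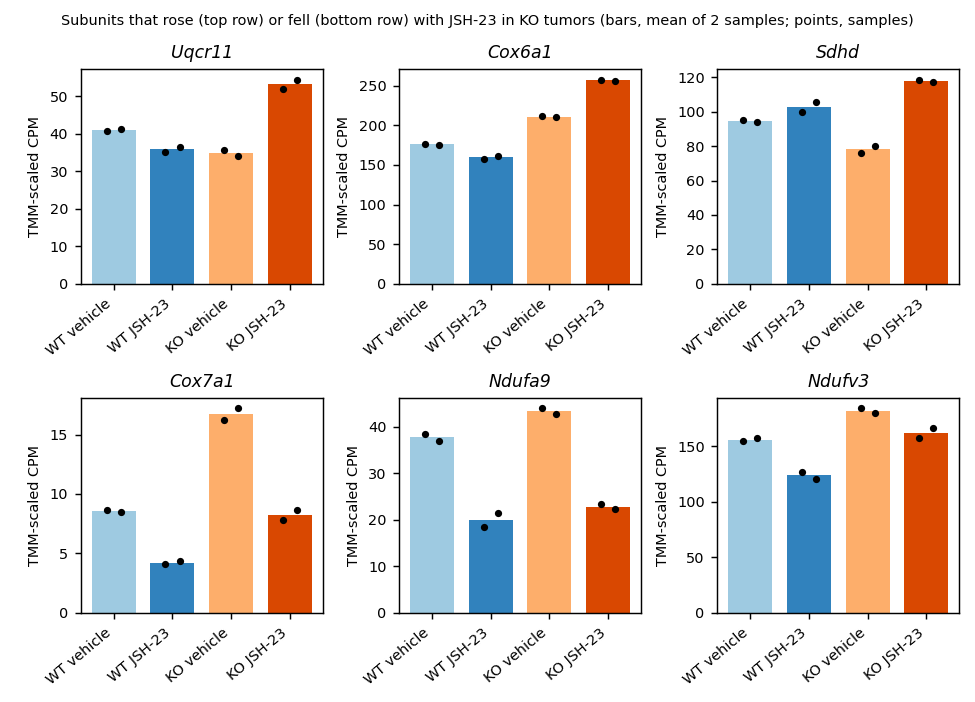
TMM-scaled CPM of 6 subunits in each group (bars, mean of 2 samples; points, samples; axes start at 0). *Uqcr11*, *Cox6a1* and *Sdhd* are highest in JSH-23-treated *Arid1a* KO tumors, and *Cox7a1*, *Ndufa9* and *Ndufv3* are lower with JSH-23 in both genotypes.

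OXPHOS promoters are known for sites of the nuclear respiratory factor NRF1, the ETS factor GABP, YY1 and the estrogen-related receptors. RefSeq promoter windows (GRCm38.p6, 250 bases before to 50 after the start) were held for 66 of the 79 subunits. A gene with several windows was counted where any of them held the motif. The NRF1 consensus was found on either strand in 25.8% of these subunits, in 10.9% of the genes tested and in 5.19% of all genes with a window. The ETS letters CCGGAAG were in 25.8% of the subunits and 19.3% of the genes tested, the YY1 letters AANATGGC in 25.8% and 9.88%, the estrogen-related receptor letters TCAAGGTCA in 3.03% and 0.309%, and the E-box CACGTG, which reads the same on both strands, in 9.09% and 11.4%. No test was made, and a match is a description of the letters, not of binding. The 250 bases before the start are shown for 3 subunits with a large interaction and for 2 that fell with JSH-23 in both genotypes. These examples do not stand for the rest. Of other subunits with a large interaction, *Atp5k* and *Atp5g1* held a motif in their windows, and *Ndufa1*, *Ndufc2* and *Ndufa4* held none. Whether motifs went with the JSH-23 effect was not tested. Capitals mark these motifs where they lie before the start, and no motif of this kind overlaps another. The window of *Atp5g3* also held the NRF1 consensus, outside the 250 bases shown. This window belongs to a start inside the listed span of the gene (chr2:73908447-73912464), not to the outer end of that span.
*Uqcr11* (chr10:80406822-80407071, minus strand; 1 ETS motif): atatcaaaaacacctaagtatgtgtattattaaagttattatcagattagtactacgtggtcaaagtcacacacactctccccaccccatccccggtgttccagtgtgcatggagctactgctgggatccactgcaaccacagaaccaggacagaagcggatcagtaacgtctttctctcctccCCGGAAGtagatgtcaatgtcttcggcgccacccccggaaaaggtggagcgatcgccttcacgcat
*Cox6a1* (chr5:115348959-115349208, minus strand; 2 NRF1 motifs and 1 ETS motif): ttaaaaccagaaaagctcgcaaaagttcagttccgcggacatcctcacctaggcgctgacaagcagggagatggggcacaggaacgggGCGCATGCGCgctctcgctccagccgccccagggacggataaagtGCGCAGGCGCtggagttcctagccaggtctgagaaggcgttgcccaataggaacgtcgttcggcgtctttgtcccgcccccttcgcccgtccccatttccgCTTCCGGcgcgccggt
*Atp5g3* (chr2:73911327-73911576, minus strand; an E-box and an estrogen-related receptor motif): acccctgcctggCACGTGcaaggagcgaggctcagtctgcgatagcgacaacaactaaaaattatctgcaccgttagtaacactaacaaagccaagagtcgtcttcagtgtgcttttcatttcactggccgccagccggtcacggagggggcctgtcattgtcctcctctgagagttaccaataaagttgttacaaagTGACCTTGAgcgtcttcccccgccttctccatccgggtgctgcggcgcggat
*Cox7a1* (chr7:30183921-30184170, plus strand; no such motif): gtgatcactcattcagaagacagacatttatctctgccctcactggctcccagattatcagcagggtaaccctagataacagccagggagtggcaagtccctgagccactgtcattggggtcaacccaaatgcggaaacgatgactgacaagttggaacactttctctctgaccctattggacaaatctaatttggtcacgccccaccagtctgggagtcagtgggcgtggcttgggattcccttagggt
*Ndufa9* (chr6:126849145-126849394, minus strand; no such motif before the start, the YY1 letters after it): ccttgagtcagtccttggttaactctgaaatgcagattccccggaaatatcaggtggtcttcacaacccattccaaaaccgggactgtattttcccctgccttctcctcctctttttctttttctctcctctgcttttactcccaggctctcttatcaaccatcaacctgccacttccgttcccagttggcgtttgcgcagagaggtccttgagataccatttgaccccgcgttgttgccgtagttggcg
Of the 66 subunits with a window, 20 held none of the 5 motifs.

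Other genes of the pathway were counted in lists, each set beside the 33.4% of all genes that were higher and the 34.4% that were lower with JSH-23 in *Arid1a* KO tumors. Of 49 assembly factors, which insert cofactors and put the complexes together, 16 were higher (32.7%, near the share of all genes) and 5 lower (10.2%), with a median log2 fold change of 0.12. The interaction was positive for 10 (20.4%, beside 20.5% of all genes) and negative for 4 (8.16%, beside 17.9%), with a median of 0.08. *Ndufaf6*, an assembly factor of complex I, rose by 1.04 (standard error 0.136, adjusted p = 5.27e-10), and *Coa7*, one of complex IV, fell (-0.95 (standard error 0.179, adjusted p = 3.52e-06)). The largest negative interaction was that of *Cox10*, which makes heme O for complex IV (-0.92 (standard error 0.159, adjusted p = 1.85e-06)).

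Of 19 genes of electron carriers and coenzyme Q synthesis, 7 rose (36.8%) and 5 fell (26.3%) with JSH-23 in *Arid1a* KO tumors, shares near those of all genes. *Cycs*, cytochrome c, was higher in *Arid1a* KO than WT tumors given JSH-23 (0.67 (standard error 0.0848, adjusted p = 3.4e-10)). *Coq10b*, a coenzyme Q binding protein, was at 0.713 and 0.294 CPM in vehicle-treated WT tumors and 1.68 and 1.70 CPM in JSH-23-treated WT tumors. It was at 2.15 and 2.08 CPM in vehicle-treated *Arid1a* KO tumors and 1.30 and 1.06 CPM in JSH-23-treated *Arid1a* KO tumors. Its interaction was -2.59 (standard error 0.545, adjusted p = 7.07e-05), opposite in sign to that of most subunits. Of the 17 citric acid cycle genes tested, 13 rose (76.5%) and 1 fell with JSH-23 in *Arid1a* KO tumors (median 0.31) and 9 had a positive interaction. *Cs*, citrate synthase, rose by 0.48 (standard error 0.0268, adjusted p = 7.15e-26). Short genes in general rose too, which limits the reading of this list and the next. Of the protein-coding genes of at most 1000 bases other than the subunits, 57.1% rose (median 0.29) and 42.7% had a positive interaction. Gene lengths in these lists were not compared with theirs. Of 77 proteins of the mitochondrial ribosome, which translates the mitochondrially encoded subunits, 45 rose (58.4%) and 4 fell (median 0.24), and 33 had a positive (42.9%) and 1 a negative interaction. *Mrpl38* rose most (0.77 (standard error 0.045, adjusted p = 9.95e-25)), and *Mrps6* had the negative interaction (-0.25 (standard error 0.0983, adjusted p = 0.0398)), a call lost without any of 6 samples (-0.15 to -0.25).

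Of the 13 regulators of mitochondrial biogenesis that were tested, 5 rose and 5 fell with JSH-23 in *Arid1a* KO tumors (38.5% each way, near the shares of all genes). *Nrf1*, the factor whose motif was searched above, was at 33.6 and 32.9 CPM in vehicle-treated and 47 and 44 CPM in JSH-23-treated WT tumors. The corresponding *Arid1a* KO levels were 27.1 and 30.7 CPM and 51 and 44.5 CPM. It rose with JSH-23 in *Arid1a* KO (0.72 (standard error 0.068, adjusted p = 5.67e-15)) and WT tumors (0.45 (standard error 0.07, adjusted p = 7.73e-08)). Its interaction was 0.26 (standard error 0.0981, adjusted p = 0.0267), a call lost without any of 4 samples, 1 of each group (0.18 to 0.25). *Tfb1m*, which modifies mitochondrial ribosomal RNA, rose by 0.90 (standard error 0.114, adjusted p = 2.1e-10) in *Arid1a* KO tumors, while *Tfam*, which packs mitochondrial DNA, fell in both genotypes (-0.23 and -0.44), the first call being lost without the first *Arid1a* KO sample with JSH-23 (-0.17). *Ppargc1a*, the coactivator PGC-1α, rose in WT tumors (0.54 (standard error 0.06, adjusted p = 3.11e-12)) and had no call in *Arid1a* KO tumors (0.02 (standard error 0.0569, adjusted p = 0.815)). Its interaction was -0.53 (standard error 0.0828, adjusted p = 2.06e-07). The ribosomal RNAs of the mitochondrion moved apart, with -0.16 (standard error 0.0236, adjusted p = 1.16e-08) for *mt-Rnr1* and 0.64 (standard error 0.0217, adjusted p = 4.07e-38) for *mt-Rnr2* with JSH-23 in *Arid1a* KO tumors.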

How the data were processed

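RNA-seq of 4 groups of 2 samples was analysed. Per the paper's methods the authors used TopHat2 to place reads on GRCm38/mm10 (best match of each read) and counted them by strand with HTSeq-count; the submitters' processing notes name HISAT2, HTSeq and DESeq2 instead. The deposited counts are whole reads per gene without normalization. The deposited TPM values equal the count divided by the listed gene length, scaled to a fixed sum, and keep no depth. Best-match counting can place reads of near-identical genes and pseudogenes on either copy.

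Counts were filtered with filterByExpr (13921 of 39089 genes), scaled by TMM (factors 0.949 to 1.03) and fitted over all 8 samples with a mean per group in edgeR 4.0.16 (R 4.3.3). Samples were grouped by their labels. The study's criterion is a fold change of 1.5 with p under 0.05; here the adjusted p was used, with the fold beside it. A count of 3, taken as the limit of detection, is 0.137 to 0.183 CPM; this covers counting error only. The test was checked first on data simulated with a larger spread than the estimate here and larger changes than that of the median subunit. That check does not cover a spread that may be technical. Lists for the rest of the pathway and for other cell types, the motifs, and the subunits named (core subunits, those with a tissue-specific relative, and per complex the largest called change in each direction and the smallest interaction p) were chosen with earlier results of these data known, as were the members. Some genes of these lists are not reported here. GC content came from GENCODE transcripts (12718 of the genes tested). Same-numbered samples of different groups did not deviate together (correlations -0.00797 to 0.0309), so the numbers were not used to pair samples. The chi-square per degree of freedom between the 2 samples of a group was above 1 in every group, and none was merged with its partner. Whether the 2 samples came from separate tumors cannot be told from this value. Alternatives were DESeq2 1.42.0, limma 3.58.1 on TPM, other scalings, filters and spreads, length and GC trends, and leaving out each sample.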

Additional observations from a re-analysis of the deposited data

Results flagged for a closer look

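The results below were set apart because the genotypes differed in their JSH-23 effect by the test of the difference itself (the interaction term in edgeR's quasi-likelihood model, adjusted p under 0.05 with Benjamini-Hochberg adjustment over all genes tested). The effect was more positive in *Arid1a* KO tumors for 63 of the 79 subunits and more negative for 1, beside 20.5% and 17.9% of all genes tested. The values of the named subunits are log2 differences, the effect in *Arid1a* KO minus that in WT tumors, with 2 samples in each group. They rest on the small spread between those samples: with a biological coefficient of variation set to 0.1, 2 subunits had a positive interaction. Leaving out 1 sample weakened *Ndufs1* and *Ndufs8* to 0.19 and *Uqcrh* to 0.15. With the length trend removed, *Atp5l* and *Uqcrh* turned to -0.04 and -0.06.

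In complex I the difference was 0.68 for *Ndufa1*, 0.59 for *Ndufc2*, 0.51 for *Ndufs3*, 0.47 for *Ndufb7*, 0.47 for *Ndufs7*, 0.37 for *Ndufv2*, 0.27 for *Ndufs1*, 0.25 for *Ndufv1* and 0.24 for *Ndufs8*. In complex II the difference was 0.48 for *Sdhd*, 0.36 for *Sdhc* and 0.27 for *Sdha*. In complex III the difference was 0.80 for *Uqcr11*, 0.65 for *Uqcrb*, 0.44 for *Uqcrfs1*, 0.34 for *Uqcrq*, 0.20 for *Uqcrc1* and 0.18 for *Uqcrh*. In complex IV the difference was 0.57 for *Ndufa4*, 0.56 for *Cox7b*, 0.47 for *Cox5b*, 0.43 for *Cox6a1*, 0.36 for *Cox7a2*, 0.35 for *Cox6b1*, 0.32 for *Cox8a* and 0.20 for *Cox4i1*. In complex V the difference was 0.69 for *Atp5k*, 0.65 for *Atp5g1*, 0.60 for *Atp5g3*, 0.42 for *Atp5b*, 0.34 for *Atp5e*, 0.32 for *Atp5c1*, 0.30 for *Atp5h*, 0.24 for *Atp5g2*, 0.23 for *Atp5a1* and 0.21 for *Atp5l*. No group was large enough here for a test of single samples that stand apart.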

How the results depend on the processing

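The number of subunits above the median of all genes stayed within 1.5 times the value in the report in all 5 comparisons and all settings tried. With fewer calls than in the report, a biological coefficient of variation of 0.1 gave 3 higher and 1 lower for *Arid1a* KO against WT with vehicle, 29 and 1 with JSH-23, 41 higher for JSH-23 in *Arid1a* KO tumors, 1 and 2 for JSH-23 in WT tumors, and 2 positive and 0 negative interactions. At 0.2 these were 1 and 0, 1 and 0, 0 and 2, 0 and 2, and 0 and 0. With these spreads set by hand, fewer calls follow from the setting. limma on log2(TPM + 1) or log2(TPM + 0.1) gave 8 lower between the genotypes under JSH-23, 44 higher and 8 lower for JSH-23 in *Arid1a* KO tumors, and 34 positive and 3 negative interactions. On that scale the median of all genes was itself shifted, by -0.20 and -0.25 for JSH-23 in *Arid1a* KO tumors. Without scaling it was shifted by -0.13, with 4 lower between the genotypes under JSH-23 and 2 negative interactions, the counts also found with a mean of at least 10 CPM. DESeq2 gave 14 higher for JSH-23 in WT tumors. With the length trend removed, or the length and GC trends, which were added after seeing the data, 5 and 5 were lower between the genotypes under JSH-23, 7 and 7 lower for JSH-23 in *Arid1a* KO tumors, and 39 and 38 interactions were positive and 2 and 2 negative. The cause of these shifts was not tested, and the shares of all genes called at these settings are not given.

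The log2 ratio of the summed level, as TMM-scaled CPM and as summed TPM, was 0.0066 and 0.0466 for *Arid1a* KO against WT with vehicle, 0.31 and 0.17 with JSH-23, 0.35 and 0.13 for JSH-23 in *Arid1a* KO tumors, and 0.0412 and 0.0099 for JSH-23 in WT tumors.

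Some named subunits changed sign. On the log2(TPM + 1) scale, log2 values were -0.0727 for *Atp5a1*, -0.0865 for *Sdhc*, -0.136 for *Uqcrc2* and -0.095 for *Uqcrh* between the genotypes under JSH-23, -0.213 for *Atp5a1*, -0.026 for *Sdha*, -0.0624 for *Sdhb*, -0.00799 for *Uqcrc1* and -0.018 for *Uqcrc2* for JSH-23 in *Arid1a* KO tumors, and -0.0923 for *Cox5a* and -0.0236 for *Uqcrh* for the interaction. On the log2(TPM + 0.1) scale, log2 values were -0.0728 for *Atp5a1*, -0.0871 for *Sdhc*, -0.137 for *Uqcrc2* and -0.0952 for *Uqcrh* between the genotypes under JSH-23, -0.214 for *Atp5a1*, -0.0261 for *Sdha*, -0.0627 for *Sdhb*, -0.00802 for *Uqcrc1* and -0.0181 for *Uqcrc2* for JSH-23 in *Arid1a* KO tumors, and -0.093 for *Cox5a* and -0.0236 for *Uqcrh* for the interaction. With the length trend removed, log2 values were -0.0107 for *Atp5g2*, -0.0198 for *Cox6b1*, -0.0101 for *Ndufc2*, -0.0088 for *Sdhc* and -0.168 for *Uqcrh* between the genotypes under JSH-23, -0.0042 for *Ndufb7* for JSH-23 in *Arid1a* KO tumors, and -0.0358 for *Atp5l* and -0.0589 for *Uqcrh* for the interaction. With the length and GC trends removed, log2 values were -0.0326 for *Cox6b1*, -0.0305 for *Ndufc2*, -0.031 for *Sdhc*, -0.00109 for *Uqcrb* and -0.191 for *Uqcrh* between the genotypes under JSH-23, and -0.0482 for *Atp5l* and -0.0784 for *Uqcrh* for the interaction. With a mean of at least 10 CPM, log2 values were -0.0478 for *Atp5a1* for JSH-23 in *Arid1a* KO tumors. With no scaling beyond library size, log2 values were -0.0896 for *Atp5a1* for JSH-23 in *Arid1a* KO tumors.

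Leaving out each sample in turn gave 19 to 26 higher and 14 to 19 lower for *Arid1a* KO against WT with vehicle, 66 to 70 and 2 with JSH-23, 68 to 71 and 4 for JSH-23 in *Arid1a* KO tumors, 18 to 24 and 10 to 15 for JSH-23 in WT tumors, and 59 to 63 positive and 1 negative interactions, with no change of sign of a called subunit among those named. A group left with 1 sample was taken to vary like the others. The replicate number as a block gave 27 and 18, 70 and 2, 70 and 4, 23 and 15, and 64 and 1, so it moved no count by over 1.5 times. Depth limits *Ndufs5* and the forms with a few reads, and short of more samples the spread rests on pairs.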
